A study of Mus musculus with 13 samples.

Results

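The 9 genes described here encode the kinases and adaptors that act first when the pre-T cell receptor or the T cell receptor (TCR) is engaged: Lck, Fyn, Zap70, Syk, Txk, Tec, Lat, Lcp2 and Plcg1. They were taken by name from a table of read counts for 47937 mouse genes, where 9 of 9 were present, and the list was chosen by role and on the Wt log2 fold changes between stages, in which Txk ranked high. The table holds 13 RNA sequencing libraries of sorted thymocytes from 7 mice, counted by the numbers in the labels, aged 6 weeks on the C57BL/6 background. DN3 and DN4 are consecutive double negative stages, lacking CD4 and CD8, on either side of β-selection. The groups were 3 DN3 and 4 DN4 libraries from WT;Lck-Cre+ mice (Wt) and 3 DN3 and 3 DN4 libraries from Opa1fl/fl;Lck-Cre+ mice (KO-labelled), in which Opa1, a gene for a mitochondria-shaping protein, is floxed. Both genotypes carried Lck-Cre, a transgene in which an Lck promoter drives Cre recombinase, so no library came from a mouse without it, and 6 of the 7 mice gave a library of each stage.

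In thymocytes, the SRC family kinases LCK and FYN phosphorylate the signalling motifs of the CD3 and ζ chains. The SYK family kinases ZAP70 and SYK bind these motifs and phosphorylate the adaptors LAT and SLP-76, the latter encoded by Lcp2, which assemble a complex with the phospholipase PLCγ1. The TEC family kinases, among them TXK and TEC, act on PLCγ1 in this complex. β-selection is the checkpoint at which a pre-T cell receptor with a rearranged β chain signals through this pathway.

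Some properties of the libraries bear on every value below. Totals ran from 5926848 to 14148661 counts. One library stood apart, Wt mouse WT05 in DN3, where Gm42418 took 20.1% of counts, against 0.915% to 1.17% for the leading gene of each other library. Markers of DN3 (Il2ra, Ptcra and 3 others) summed to 912 to 1700 CPM (counts scaled to the size of the library) in DN3 and 97.1 to 144 in DN4, in the direction of the labels. The 10 B cell markers summed to 23.0 to 59.6 CPM in DN3 and 313 to 4128 in DN4, and all 10 were detected in each DN4 library. Markers of immature single positive and double positive cells summed to 210 to 374 CPM in DN3 and 1165 to 4127 in DN4. Opa1 itself, counted over the whole gene, was 77.0 to 93.8 CPM in KO-labelled and 85.1 to 112 in Wt libraries, so its counts did not separate the genotypes and the genotype rests on the label. Reads of Xist were found in 3 of 3 KO-labelled and 2 of 4 Wt mice, so sex was not balanced between the genotypes and its part in the genotype comparisons was not tested. In sorted populations, fewer cells of a type and less RNA per cell cannot be told apart.

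Promoters are shown for Txk and Zap70 because both genes rose from DN3 to DN4 in the KO-labelled mice. Fyn also rose, but its RefSeq start lies 944 bases within the gene as GENCODE annotates it, so its window is not shown. Each run is the 250 bases before a RefSeq gene start on GRCm38.p6, the mm10 build of the labels, written 5′ to 3′ on the gene's strand. Capitals mark matches on either strand to AGGAAG (an ETS motif), CAGGTG (an E protein E-box), TGTGGT (a RUNX motif) and CTTTGA (a TCF/LEF motif).
Txk, chr5:72752778-72753027, minus strand: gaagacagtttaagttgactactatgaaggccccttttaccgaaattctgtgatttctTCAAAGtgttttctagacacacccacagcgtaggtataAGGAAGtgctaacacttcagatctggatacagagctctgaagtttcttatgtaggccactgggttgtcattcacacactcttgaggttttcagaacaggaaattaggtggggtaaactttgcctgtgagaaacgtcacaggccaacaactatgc
Zap70, chr1:36761548-36761797, plus strand: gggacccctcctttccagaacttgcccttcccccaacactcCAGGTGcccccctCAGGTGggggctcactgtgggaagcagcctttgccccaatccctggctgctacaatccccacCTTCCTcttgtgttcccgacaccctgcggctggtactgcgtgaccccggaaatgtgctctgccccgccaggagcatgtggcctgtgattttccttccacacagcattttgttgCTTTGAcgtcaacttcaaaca
The Txk window held AGGAAG and CTTTGA once each. The Zap70 window held CAGGTG at 2 places and AGGAAG and CTTTGA once each. In the Fyn window CTTTGA was the single match. TGTGGT was in none of the 3 windows. Of 32851 RefSeq windows of the same length, 29.5% held AGGAAG, 17.2% CAGGTG, 14.05% TGTGGT and 13.8% CTTTGA, so a match is a description of the sequence and no more.

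The KO-labelled libraries, which the choice of genes did not use, gave the test of the stages. Fyn, Zap70 and Txk rose from DN3 to DN4 and no member fell, so 3 of 9 were called at an adjusted p of 0.05 (edgeR's quasi-likelihood test, Benjamini-Hochberg over 12580 genes). Over all genes 18.6% were called, 11.2% higher and 7.34% lower in DN4. The median log2 fold change was 0.29 over the 9 genes and -0.02 over all genes tested. In 4 of 9 genes (Fyn, Zap70, Txk and Lcp2) the 3 DN4 libraries all lay above the 3 DN3 libraries, where 39.1% of 13361 genes had groups that did not overlap in one direction or the other. The 9 genes passed the filter on low counts in each comparison.

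**Figure D1:**
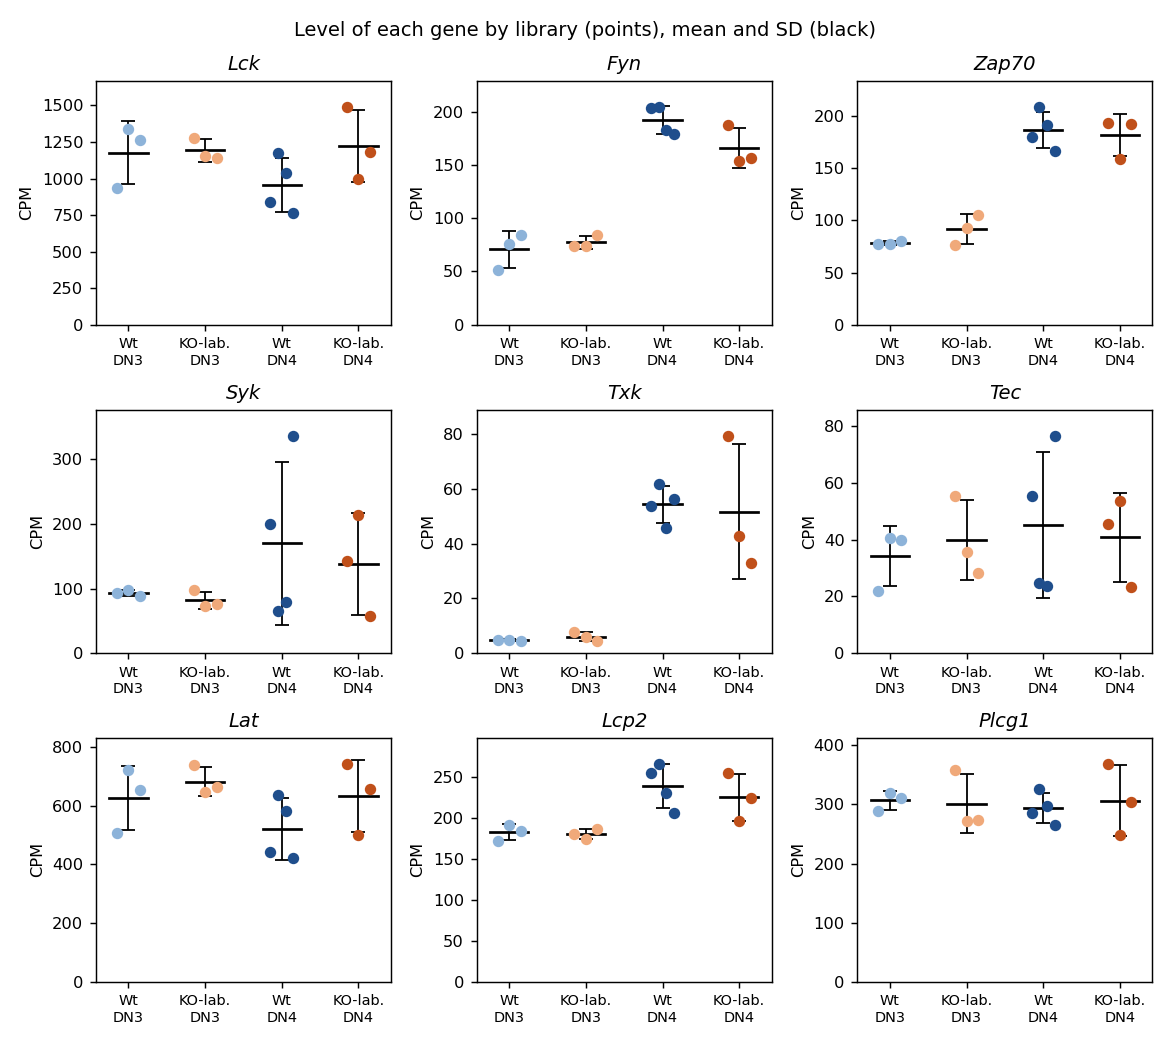
CPM of the 9 genes (y axis, linear from 0) in each library (points) of the 4 groups, with the mean and SD in black. Txk, Fyn and Zap70 sit higher in all 7 DN4 libraries than in any DN3 library, while Syk and Tec are widely spread in DN4.

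Txk, the TEC family kinase also called RLK, had the largest change of the 9. In KO-labelled DN3 it was 7.83, 5.86 and 4.41 CPM in mice KO45, KO49 and KO51, and in KO-labelled DN4 79.4, 42.7 and 33.1 CPM in the same mice. The order of the 3 mice was the same in both stages. The fold was 8.32 (95% interval 4.60 to 15.1), with a log2 fold change of 3.06, a standard error of 0.371 and an adjusted p of 0.00161 by edgeR, the 338th largest rise of 12580 genes. In Wt mice, whose values served to choose the gene, Txk was 4.97, 4.87 and 4.29 CPM in DN3 and 53.6, 61.9, 45.7 and 56.1 CPM in DN4, a log2 difference of 3.51 (SE 0.166) and the 459th largest of 12691, or 3.53 (SE 0.182) without WT05 in DN3. Within the 6 mice with both stages the log2 difference lay between 2.85 and 3.69.

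Txk and Tec are neighbours on chromosome 5, on the minus strand, with Txk at chr5:72695978-72752777 and Tec at chr5:72755716-72868483 (GRCm38). A gap of 2938 bases and 0 annotated genes separate them. For Tec, the founding TEC family kinase, no difference between the stages was detectable. In KO-labelled mice KO45, KO49 and KO51 it was 55.4, 35.8 and 28.1 CPM in DN3 and 45.4, 53.8 and 23.2 in DN4, overlapping ranges with a log2 fold change of 0.01 (95% interval -0.79 to 0.80, adjusted p = 0.993 by edgeR). In Wt mice Tec was 21.9, 40.6 and 39.97 CPM in DN3 of WT05, WT46 and WT48 and 55.3, 24.9, 23.7 and 76.7 in DN4 of WT05, WT40, WT46 and WT48, a log2 difference of 0.36 (SE 0.437) with overlapping ranges. Within mice it was higher in DN4 in WT05, WT48 and KO49 and lower in the other three. Per kilobase of exon union (all annotated exons of a gene merged), the log2 ratio of Txk to Tec was -4.25 ± 0.11 (SD, n = 3) in KO-labelled DN3 and -1.22 ± 0.59 (SD, n = 3) in DN4. The difference of 3.03 had an exact permutation p of 0.1, two-sided, the smallest that 3 against 3 allows, and an adjusted p of 0.3 over the 9 ratio tests made.

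Fyn, the SRC family kinase that shares substrates with LCK, was 74.1, 73.5 and 84.2 CPM in KO-labelled DN3 and 187, 154 and 157 in DN4. The fold was 2.11 (95% interval 1.75 to 2.54, adjusted p = 0.00106 by edgeR), and the groups did not overlap. Lck, the kinase carried by the coreceptors CD4 and CD8 and the most abundant of the 9 per kilobase, was 1281, 1156 and 1140 CPM in DN3 and 1489, 999 and 1181 in DN4, with a log2 fold change of 0.01 (95% interval -0.36 to 0.38, adjusted p = 0.977 by edgeR). In Wt mice, Fyn was 51.8 to 84.6 CPM in DN3 and 179 to 204 in DN4, and Lck 937 to 1336 and 765 to 1176, log2 differences of 1.41 (SE 0.167) and -0.33 (SE 0.198), given as a description.

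The ratio of the SRC family kinases was compared within libraries. Lck exceeded Fyn per kilobase by 20.2 to 25.7 times in the 3 KO-labelled DN3 libraries and by 9.69 to 11.9 times in the 3 DN4 libraries, a log2 difference of -1.08 (exact permutation p = 0.1, the smallest possible, adjusted p = 0.3). In Wt mice the ratio was 22.2 to 26.9 in DN3 and 6.18 to 8.58 in DN4. The KO-labelled and Wt DN4 libraries did not overlap in this ratio, with a log2 difference of 0.57, as 7.11% of single genes also did not. This difference draws on the Wt DN4 values on which the list was chosen, so it is not independent of that choice. Its two-sided exact permutation p, given with that limit, was 0.0571, the smallest that 3 against 4 allows with the tail doubled. That p could not fall under 0.05 whatever the values, so it decides nothing at that threshold. Its adjusted p was 0.3. When p was instead taken as the share of splits with a difference at least as large in size, it was 0.0286, again the smallest possible. That choice was made after the first value had been seen, and the adjusted p was 0.257.

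Zap70, the SYK family kinase that predominates in mature T cells, was 76.4, 92.6 and 105 CPM in KO-labelled DN3 and 194, 159 and 192 in DN4, without overlap. The fold was 1.96 (95% interval 1.57 to 2.44, adjusted p = 0.00308 by edgeR). In Wt mice it was 77.3 to 80.4 CPM in DN3 and 167 to 208 in DN4, a log2 difference of 1.22 (SE 0.109) that served to choose the list. Its paralogue Syk, which B cells use in the place of ZAP70, was 97.2, 72.8 and 75.8 CPM in DN3 and 143, 214 and 57.1 in DN4 of mice KO45, KO49 and KO51. Syk was thus higher in DN4 in KO45 and KO49 and lower in KO51, with a log2 fold change of 0.72 (95% interval -0.21 to 1.66, adjusted p = 0.256 by edgeR). Its value rested on single DN4 libraries, at 1.08 (adjusted p = 0.00704 by edgeR) without KO51 and 0.26 (adjusted p = 0.668) without KO49. In Wt mice Syk was 89.0 to 97.8 CPM in DN3 and 199, 64.7, 79.0 and 336 in DN4 of WT05, WT40, WT46 and WT48, a log2 difference of 0.84 (SE 0.527).

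**Figure D2:**
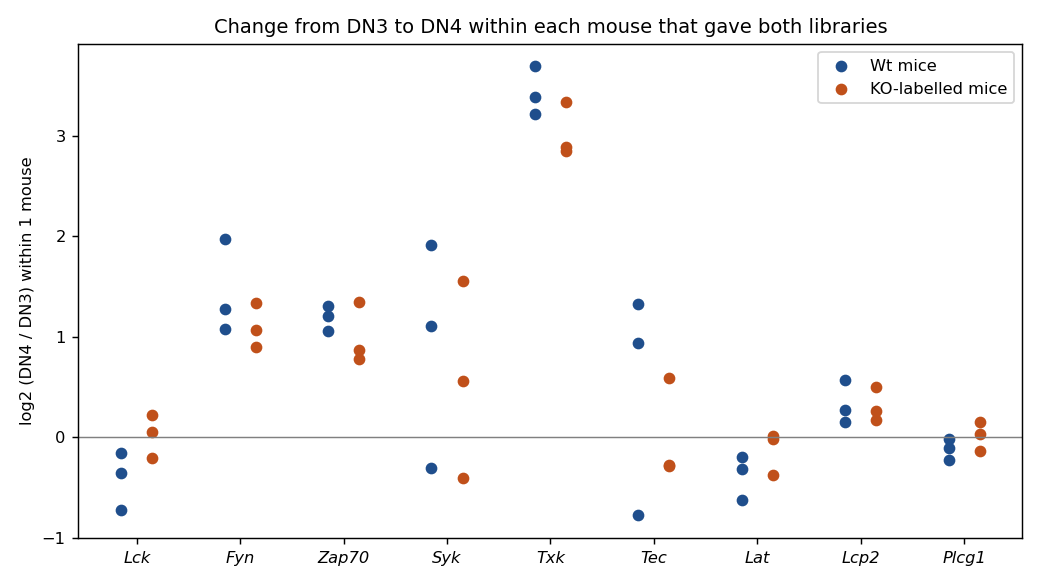
Log2 ratio of DN4 to DN3 CPM (y axis) for each gene (x axis) within each of the 6 mice with both stages, 3 Wt and 3 KO-labelled. Fyn, Zap70, Txk and Lcp2 are above 0 in 6 of 6 mice, and Syk and Tec lie on both sides.

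The adaptors and PLCγ1 moved little. Lcp2 was 180, 174 and 187 CPM in KO-labelled DN3 and 254, 197 and 224 in DN4, with a log2 fold change of 0.29 (SE 0.117) and an adjusted p of 0.123 by edgeR. With the mouse as a replicate block the estimate was again 0.29 and the adjusted p 0.0227, so Lcp2 passed with the block, where 35.8% of all genes were called. Lat, the membrane adaptor, was 738, 646 and 665 CPM in DN3 and 743, 499 and 658 in DN4 (log2 fold change -0.14, 95% interval -0.50 to 0.23, adjusted p = 0.588 by edgeR). Plcg1 was 359, 272 and 273 CPM in DN3 and 368, 248 and 303 in DN4 (log2 fold change -0.01, 95% interval -0.42 to 0.41, adjusted p = 0.986 by edgeR). In Wt mice the log2 differences were 0.36 (SE 0.117) for Lcp2, -0.30 (SE 0.191) for Lat and -0.09 (SE 0.110) for Plcg1.

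Per kilobase of exon union the 9 genes spanned a wide range of levels. In Wt DN3, Lck was at 402 and Lat at 227 CPM per kilobase, followed by Lcp2 at 40.95 and Plcg1 at 39.0, whose libraries overlapped. Zap70 at 26.2 and Fyn at 16.2 came next, then Syk at 9.94 and Tec at 9.13, which overlapped, and Txk at 0.43 was lowest. In Wt DN4, Lck at 326 and Lat at 188 were again ahead. From Zap70 at 62.4 through Lcp2 at 53.6, Fyn at 44.1, Plcg1 at 37.4 and Syk at 18.1 to Tec at 12.1, each gene overlapped the next. Txk, at 4.96, was again lowest. The exon union is 10955 bases for Txk and 3744 for Tec. In CPM, Txk averaged 54.3 and Tec 45.1 in Wt DN4, with overlapping libraries, so the lowest place of Txk in DN4 rests on that length.

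Syk and Tec went with the B cell markers of the DN4 libraries, as did many other genes. Of 13351 genes other than the markers, 18.8% had an unadjusted exact p under 0.05 for Pearson's r with the marker level, against 3 of 9 here (Syk, Tec and Zap70), and 3.66% passed after adjustment over all of them, against 2 of 9. In order of rising marker level, which was KO51, WT40, WT46, KO45, WT05, KO49 and WT48, Syk was 57.1, 64.7, 79.0, 143, 199, 214 and 336 CPM. Over these 7 libraries of both genotypes the log2 values had Pearson's r = 0.998 (exact permutation p = 0.000198, adjusted p = 0.0217 over 13351 genes) and Spearman's rho = 1 (exact permutation p = 0.000397, adjusted p = 0.0335). Without the 2 libraries farthest from the median marker level r was 0.999. For Tec, r was 0.980 (exact permutation p = 0.00119, adjusted p = 0.0398) and rho 0.929 (exact permutation p = 0.00675, adjusted p = 0.118, which did not pass), with r = 0.986 without the 2 farthest. Zap70 went the other way, with r = -0.812, an exact permutation p of 0.0294 and an adjusted p of 0.203, which did not pass. Lat (r = -0.723), Lck (r = -0.592), Plcg1 (r = -0.508) and Lcp2 (r = -0.442) also had negative values that did not pass. Txk had r = 0.325 and Fyn r = -0.008, neither past the threshold.

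**Figure D3:**
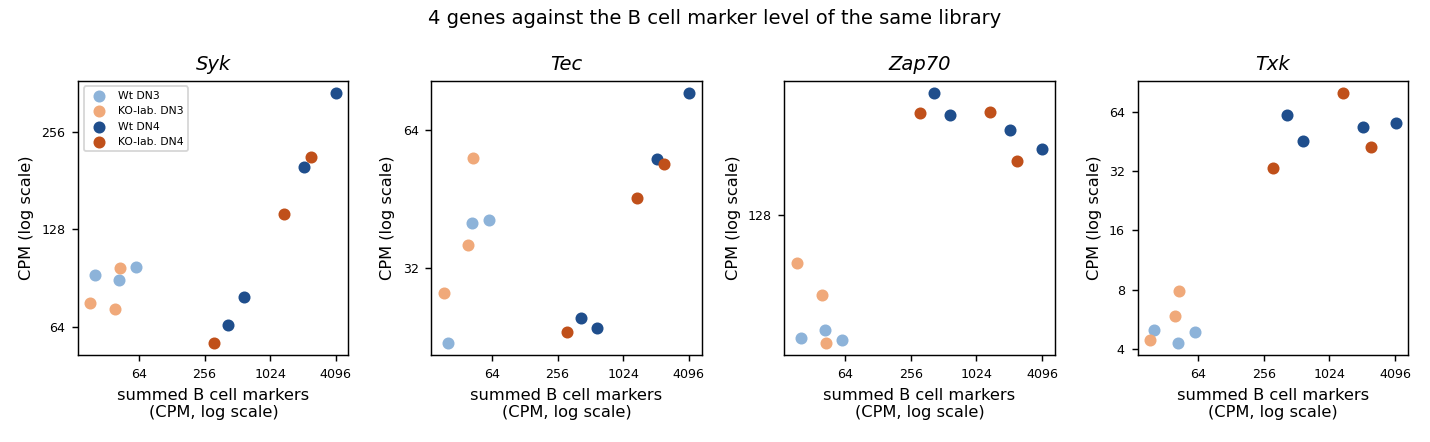
CPM of Syk, Tec, Zap70 and Txk (y axes, log scale) against the summed CPM of 10 B cell markers (x axes, log scale), with 1 point per library and colours for the 4 groups. Syk and Tec rise along the DN4 libraries, and Txk is high in DN4 libraries of low and of high marker level.

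Between the genotypes, 0 of 9 genes were called in DN3 and 0 of 9 in DN4 by edgeR. Over all genes the share called was 0% in DN3 and 0.0535% in DN4. DESeq2 also called 0 of the 9 in each stage, against 3 of 12081 genes in DN3 and 51 of 13081 in DN4. At an unadjusted p under 0.05 by edgeR there were 0 of 9 in each, against 1.39% of all genes in DN3 and 5.46% in DN4. When 1 library was left out there were 0 to 2 of 9 in each. Over all genes those fits gave 87 of 12511 to 495 of 12496 in DN3 and 376 of 12777 to 967 of 12904 in DN4. These comparisons use the Wt libraries on which the list was chosen. The libraries of the genotypes overlapped for 9 of 9 genes in both stages, where 6.52% of all genes in DN3 and 7.11% in DN4 did not overlap. In DN3 the log2 fold changes ran from -0.19 for Syk to 0.36 for Txk. Without the WT05 library in DN3 they ran from -0.19 for Syk to 0.40 for Txk, that of Fyn went from 0.11 to -0.05, and 0 of 9 were called. In DN4 they ran from -0.26 for Syk to 0.39 for Lck, whose 95% interval was -0.07 to 0.85 (adjusted p = 0.883 by edgeR). Lat was next, at 0.32 (95% interval -0.15 to 0.78).

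**Figure D4:**
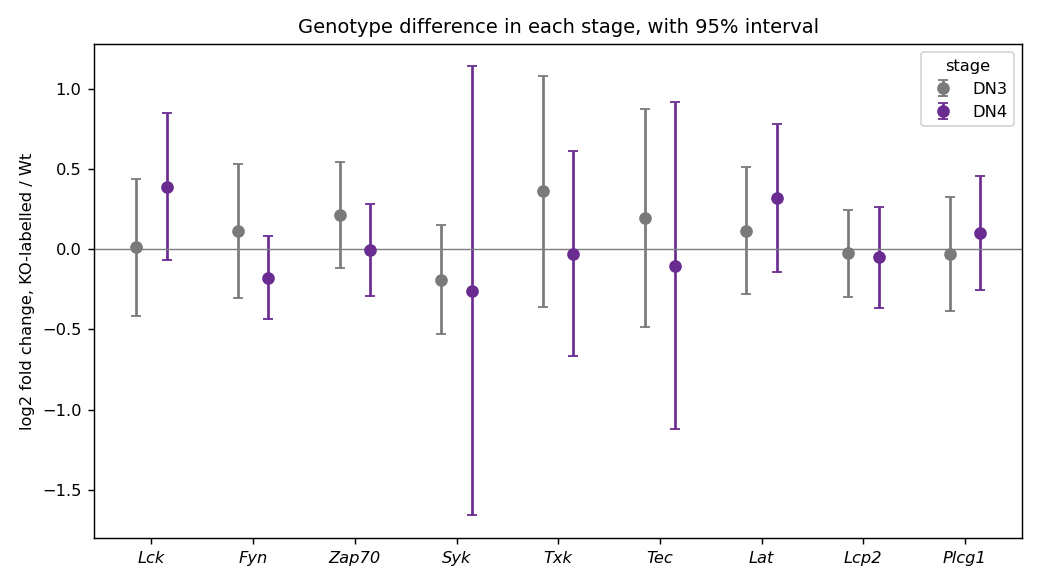
Log2 fold change of KO-labelled over Wt (y axis) for the 9 genes in DN3 and DN4, with the 95% interval as bars. Each interval holds 0, and those of Syk and Tec in DN4 are the widest.

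The intervals show what these libraries could detect. In DN4 the interval for Zap70 was -0.29 to 0.28 and that for Fyn -0.44 to 0.08 on the log2 scale, whereas that for Syk was -1.66 to 1.14. With the B cell marker level as a covariate, a fit added after the data were seen, the standard error for Syk fell from 0.611 to 0.0913 and that for Tec from 0.445 to 0.120. The estimates were then 0.01 for Syk and 0.08 for Tec. Lck remained at 0.39 (unadjusted p = 0.0286, adjusted p = 0.497 by edgeR) and 0 of 9 genes were called. Markers of immature single positive and double positive cells, 1165 to 4127 CPM in DN4, were not a covariate. Their part in the Lck value was not tested. In this fit 0.176% of all genes were called and 9.13% had an unadjusted p under 0.05. The interaction of stage and genotype uses the Wt stage change on which the list was chosen, so it is not independent of that choice. It was called for 0 of 9 genes and for 0% of all genes, with estimates from -0.44 for Txk to 0.34 for Lck. When 1 library was left out, that of Txk ran from -0.89, without KO45 in DN4, to -0.19 and that of Lck from 0.17 to 0.49. At an unadjusted p under 0.05 by edgeR the interaction held 0 of 9 genes, against 3.59% of all genes. When 1 library was left out it held 0 to 1 of 9, against 286 of 13239 to 783 of 13774 genes in those fits.

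Of 58 other genes of the pathway, in 4 lists by role, 54 were tested between the stages. In KO-labelled mice 24 were called, 20 higher and 4 lower in DN4, against the 11.2% and 7.34% of all genes, and with the mouse as a replicate block 37 were called, where 35.8% of all genes were called in place of 18.6%. In Wt mice 29 were called, 24 higher and 5 lower (19 without WT46 in DN3 and 19 without WT05 in DN4), where 22.9% of all genes were called, 13.4% higher and 9.43% lower. Among 12 tested effectors next to the LAT complex, 6 rose and 0 fell in KO-labelled mice. Among 14 regulators and phosphatases 4 rose and 2 fell, among 22 adaptors 6 rose and 2 fell, and among 6 further SRC, SYK and TEC family kinases 4 rose and 0 fell. Between the genotypes 0 of 52 were called in DN3 and 0 of 55 in DN4.

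**Figure D5:**
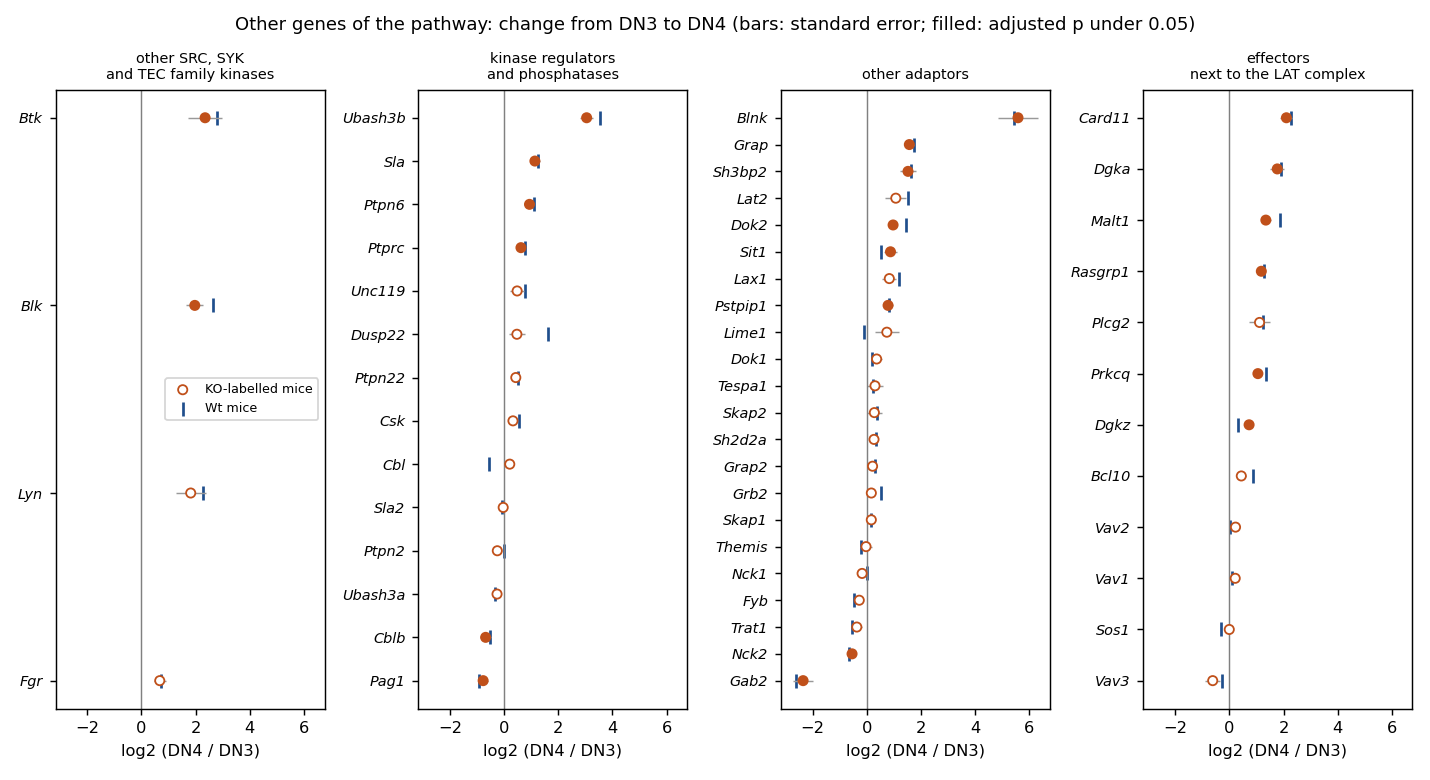
Log2 fold change of DN4 over DN3 (x axes) for tested genes of the 4 pathway lists, with points for KO-labelled mice, filled where the adjusted p was under 0.05, bars for the standard error and blue ticks for Wt mice. Blnk lies farthest to the right and Gab2 farthest to the left.

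Among the largest rises in KO-labelled mice, as log2 fold changes, were those of Blnk, the SLP-76 relative of B cells, at 5.58 and Ubash3b, a phosphatase that acts on ZAP70 and SYK, at 3.05. Blnk was 10.96 CPM in the KO51 DN4 library, where B cell markers were lowest, and 117 in WT48, where they were highest. Ubash3b, in contrast, was 25.2 and 41.4 CPM in these libraries and between 25.2 and 62.0 in all DN4 libraries. The largest falls were those of the adaptor Gab2 (-2.35), of Pag1 (-0.77), which recruits the inhibitory kinase CSK, and of the ubiquitin ligase Cblb (-0.68).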

How the data were processed

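RNA of sorted thymocytes was sequenced from stranded mRNA libraries. The authors trimmed reads with Cutadapt, mapped them with STAR (mm10 in the labels) and deposited raw read counts per gene from featureCounts. The annotation release and strand setting are not given in the sources used here. Of 47937 gene identifiers, 47310 were found in GENCODE M21 without version. There were 0 unused columns. The 9 genes, the lists and the tests were chosen with earlier results of these data known, and Wt stage values of the 9 genes are therefore untested.

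Only the groups compared entered each fit, made with edgeR 4.0.16 in R 4.3.3 (quasi-likelihood test, filterByExpr with a minimum count of 10, TMM, Benjamini-Hochberg at 0.05), the interaction on all 13 libraries. Levels are CPM on TMM-scaled totals, and lengths are exon unions. Ratios and correlations were tested with exact permutations (SciPy 1.17.1). p-values of the group comparisons measure the spread between mice of 1 group. With the replicate block they measure the spread of stage differences within mice. For correlations, the 7 DN4 libraries of both genotypes were permuted together. Stage and interaction fits without the block treat the 2 libraries of a mouse as independent. DESeq2 1.42.0, its size factors, no filter, leaving out each library and a replicate block were tried. The main edgeR fits of the stages in KO-labelled mice and of the genotypes in DN4 were run on simulated data. The other fits were not. The numbers in the labels were taken as the mouse, which the labels do not state. Same-numbered libraries deviated together (correlations 0.138 to 0.393 in 6 mice so counted), and whether they shared anything else was not tested.

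All 9 genes are named, with the 3 called pathway genes of largest change each way, and for Txk and Syk the 5 genes nearest in root mean square log2 difference. Some genes that this rule names are not reported here. Exons of Lat and Lck overlap a miRNA gene, and those of Lcp2 and Plcg1 a gene on the other strand. Stretches of 50 bases shared with other genes made up 4.74% of Lcp2, 3.16% of Plcg1 and under 1% of the others.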

Additional observations from a re-analysis of the deposited data

How the results depend on the processing

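Fyn, Zap70 and Txk in KO-labelled mice kept their direction and their call under every alternative, leave-outs included, and 3 to 4 of the 9 genes were called. Over all genes these fits called from 1407 of 13170, without KO49 in DN3, to 4499 of 12580 with the replicate block. Between the genotypes and for the interaction 0 of the 9 were called in each leave-out, where at most 8 of all genes were called. With the replicate block Lck (-0.0050) and Tec (-0.019) changed sign in the stage comparison, and 37 pathway genes were called, with 35.8% of all genes called. It changed no other call of the 9 genes in KO-labelled mice than that of Lcp2. Plcg1 changed sign with DESeq2 size factors (0.0056), without the filter (0.0066) and with DESeq2 (0.0057). With the B cell covariate the genotype difference in DN4 became 0.0064 for Syk and 0.082 for Tec. The p of the Lck to Fyn ratio by size of the difference, added after the first p was seen, crossed 0.05 for the difference of 0.57, and not after adjustment. Leaving out 1 library gave 17 to 29 pathway calls in KO-labelled and 19 to 29 in Wt mice. Over all genes it gave 1407 of 13170 to 2790 of 13195 in KO-labelled and 1877 of 13055 to 3393 of 13213 in Wt mice. The log2 fold changes then spanned 0 in the KO-labelled stage comparison for Lck (-0.18 to 0.13), Tec (-0.24 to 0.35), Lat (-0.29 to 0.0062) and Plcg1 (-0.18 to 0.16). In DN3 between genotypes they did for Lck (-0.12 to 0.11), Fyn (-0.051 to 0.26), Tec (-0.13 to 0.40), Lat (-0.012 to 0.23), Lcp2 (-0.062 to 0.0072) and Plcg1 (-0.18 to 0.038). In DN4 they did for Zap70 (-0.073 to 0.10), Syk (-0.69 to 0.30), Txk (-0.50 to 0.22), Tec (-0.33 to 0.26), Lcp2 (-0.16 to 0.053) and Plcg1 (-0.069 to 0.25). For the interaction they did for Syk (-0.58 to 0.45), Tec (-0.59 to 0.041), Lcp2 (-0.16 to 0.020) and Plcg1 (-0.066 to 0.23). The log2 ratio of Zap70 to Syk ran from -0.15 to 0.94 between stages and from -0.45 to 0.65 between genotypes in DN4, and that of Txk to Tec between genotypes from -0.10 to 0.44 in DN3 and from -0.41 to 0.22 in DN4. These causes were not tested.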

Other observations

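Over the 13 libraries, the genes whose centred log2 CPM lay nearest to that of Txk, of 13361 genes, were Rab19 (root mean square difference 0.303), Bcl6 (0.332), Evl (0.337), Gsn (0.352) and Ms4a4b (0.358). Bcl6, a transcriptional repressor, was 5.25 ± 0.95 CPM in KO-labelled DN3 and 73.1 ± 35.04 in DN4 (SD, n = 3 each). Gsn, which encodes the actin-severing protein gelsolin, was 11.6 ± 4.02 and 108 ± 27.9 CPM in the same groups.

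Among the genes nearest to Syk were Rhbdf2 (0.232), Plcg2 (0.237), Snx9 (0.254) and Entpd1 (0.276). Plcg2, the phospholipase that B cells use beside SYK, was 33.8 ± 3.12 CPM in KO-labelled DN3 and 74.5 ± 42.8 in DN4 (SD, n = 3 each), a wide spread between DN4 libraries as for Syk.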
